A study of Mus musculus with 15 samples.

Results

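Liver transcripts of the high-fat diet group labelled HFD-338 were compared with those of the high-fat diet group labelled HFD-Res, over all genes of the deposited count table. Libraries were placed in their groups by the labels, with no measured value used, and the comparison takes 6 of the 15 libraries of the series, 3 in each group. HFD-338 holds replicates 17, 18 and 19, and HFD-Res holds replicates 29, 30 and 34; values of single libraries follow these replicate numbers. The series treats mice on a high-fat diet, a model of the fatty liver disease MASLD, with resmetirom or with Gc337, an antisense oligonucleotide against STK25, and the label Res is read here as resmetirom. The labels do not say what the number in HFD-338 stands for, whether that group received an oligonucleotide, or which sequence it had. Both groups share the diet, the species and the tissue (mouse liver). Strain, sex, age, dose, route and duration of treatment are not given in the sources used here. HFD-NS, another group on the same diet (replicates 12, 13 and 16), is given beside the comparison where its level matters; SD-NS, on the diet labelled SD (replicates 6, 7 and 8), appears in the plots. The remaining high-fat diet group, labelled HFD-337 (replicates 23, 26 and 27), is neither described nor drawn. Its libraries entered the same fit as all others. NS and SD are not spelled out in the labels.

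Resmetirom is an agonist of thyroid hormone receptor beta, the main thyroid hormone receptor of hepatocytes. Ligand-bound receptor raises transcription of genes such as Dio1 and Thrsp, of lipogenic enzymes and of Cyp7a1, and thyroid hormone action in liver increases the turnover of cholesterol. STK25 is a protein kinase of the germinal centre kinase III family that lies on lipid droplets in hepatocytes. Livers under lasting injury typically gain biliary epithelial cells and small ducts, macrophages, collagen and dividing cells, and re-express genes of the fetal liver.

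Libraries held 7961529, 7079830 and 7100274 counts in HFD-338, against 4637933, 4173224 and 6814824 counts in HFD-Res. They detected 16610 to 16913 genes in HFD-338 and 15138 to 15621 in HFD-Res. Alb, which encodes albumin and defines hepatocytes, was the most abundant gene of every library, and Pearson correlations of log CPM ran from 0.981 to 0.986 within HFD-338, from 0.980 to 0.983 within HFD-Res and from 0.894 to 0.918 between the groups. Xist, expressed in female cells, had at most 6 counts in any library, whereas the Y-linked gene Ddx3y had 576 counts or more, so all 15 libraries carry a male pattern. Levels below are TMM-scaled CPM (counts scaled to library size), SDs and values after ± are over 3 libraries, and fold changes are HFD-338 over HFD-Res. Each adjusted p is from edgeR's quasi-likelihood test with Benjamini-Hochberg adjustment across the whole table, and genes below 0.05 are counted as called. These values reflect only the spread of the samples at hand, since the labels do not state that each library is a separate animal.

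Of 26264 genes in the table, 13189 had enough counts to be tested. HFD-338 differed from HFD-Res in 5687 of them (43.1% of those tested), of which 2926 rose (22.2%) and 2761 fell (20.9%). Larger changes were mostly rises: 1635 genes rose and 653 fell at least 2-fold (17.3% together), and 640 rose and 200 fell at least 4-fold. The split depends on the processing. RLE size factors, which change the scaling alone, gave 54.5% rises among the calls. TPM recomputed from the counts and tested with limma, with its own filter on low values, which shifted the median log2 fold change of all genes by 0.12, gave 3601 rises and 1796 falls, or 66.7% rises among the calls against 51.5%. In 7111 genes (53.9%) the libraries of the groups did not overlap. Genes named below had to be among these, apart from those named whatever their result or for another stated reason. Lack of overlap in single named genes therefore follows from the choice and is not a separate result. By the same test and against the same HFD-NS libraries, 2490 genes rose (18.9%) and 2357 fell (17.9%) in HFD-338, and 820 rose (6.22%) and 889 fell (6.74%) in HFD-Res. Those contrasts share the HFD-NS libraries, so they are given side by side only.

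**Figure D1:**
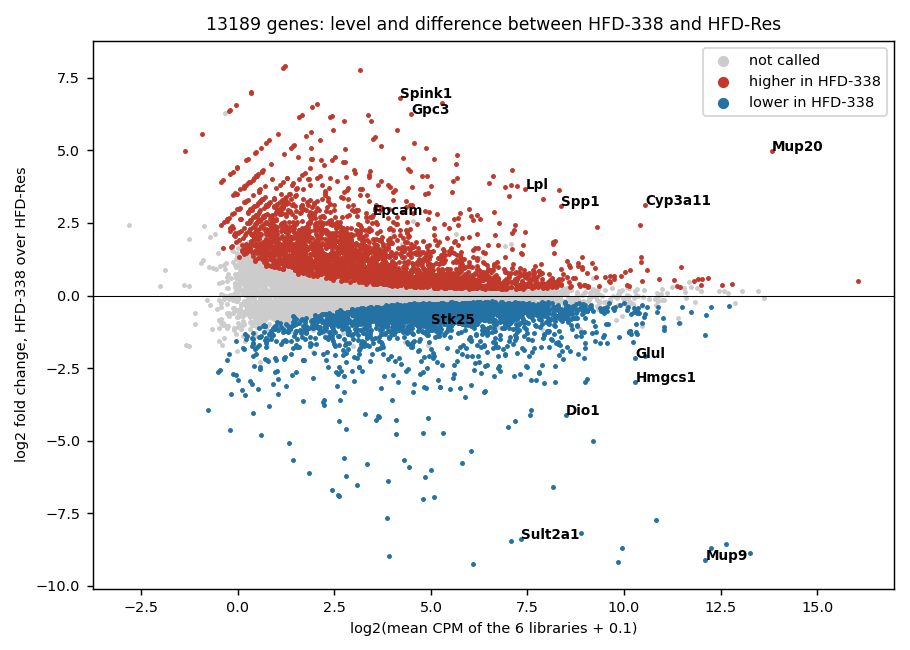
Each point is 1 of 13189 genes, with its mean level over the 6 libraries on the x axis (log2 of CPM plus 0.1) and its log2 fold change of HFD-338 over HFD-Res on the y axis; coloured genes had an adjusted p under 0.05. Rises such as Spink1 and Gpc3 fan out among genes of low to middle level, while Mup20 and Mup9 stand at opposite ends among abundant genes.

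The widest differences lay in a few gene families. The 15 largest falls comprised 8 Mup genes (major urinary proteins), 4 Sult2a genes (sulfotransferases), Cyp3a16, Cyp2b13 and A1bg. The 15 largest rises were Tmprss4, Gipc2, Spire2, Spink1, Ubd, Lrtm2, Gpx2, Gpc3, H19, Apela, Tinag, Mas1, Ckap2, Mmp7 and Slc7a11. Ubd encodes the ubiquitin-like protein FAT10, which is induced by inflammatory cytokines. It had 89.5, 78.9 and 62.4 CPM in HFD-338, against 0.856, 1.38 and 0.291 CPM in HFD-Res (log2 fold change 6.63 with an SE of 0.680, adjusted p = 1.98e-05). Its HFD-338 libraries all lay far above every HFD-Res library, and HFD-NS lay between, at 5.37, 8.94 and 8.64 CPM. Tmprss4, a membrane serine protease of epithelia, had 104 counts over the HFD-338 libraries and 0 over the HFD-Res libraries, at least 22.5-fold higher when the HFD-Res group is set at a floor of 3 counts. Spire2, an actin nucleator, had 57 counts and 0 counts, at least 12.3-fold higher. Gipc2, a PDZ adaptor protein, had 433 counts over the HFD-338 libraries and 1 over the HFD-Res libraries, a ratio of scaled counts of 281 with a counting interval of 50.2 to 11100.0. For Mas1, an angiotensin-(1-7) receptor, there were 140 counts over the HFD-338 libraries and 1 over the HFD-Res libraries, a ratio of scaled counts of 90.9 with a counting interval of 16 to 3610.0. Apela, a ligand of the apelin receptor, had 149 counts over the HFD-338 libraries and 1 over the HFD-Res libraries, a ratio of scaled counts of 96.7 with a counting interval of 17.1 to 3850.0. Lrtm2 had 194 counts over the HFD-338 libraries and 1 over the HFD-Res libraries, a ratio of scaled counts of 126 with a counting interval of 22.3 to 5000. For Tinag there were 259 counts over the HFD-338 libraries and 2 over the HFD-Res libraries, a ratio of scaled counts of 84.1 with a counting interval of 23 to 698. The remaining large rises are described with their groups below, and counting intervals and floors cover counting error only.

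**Figure D2:**
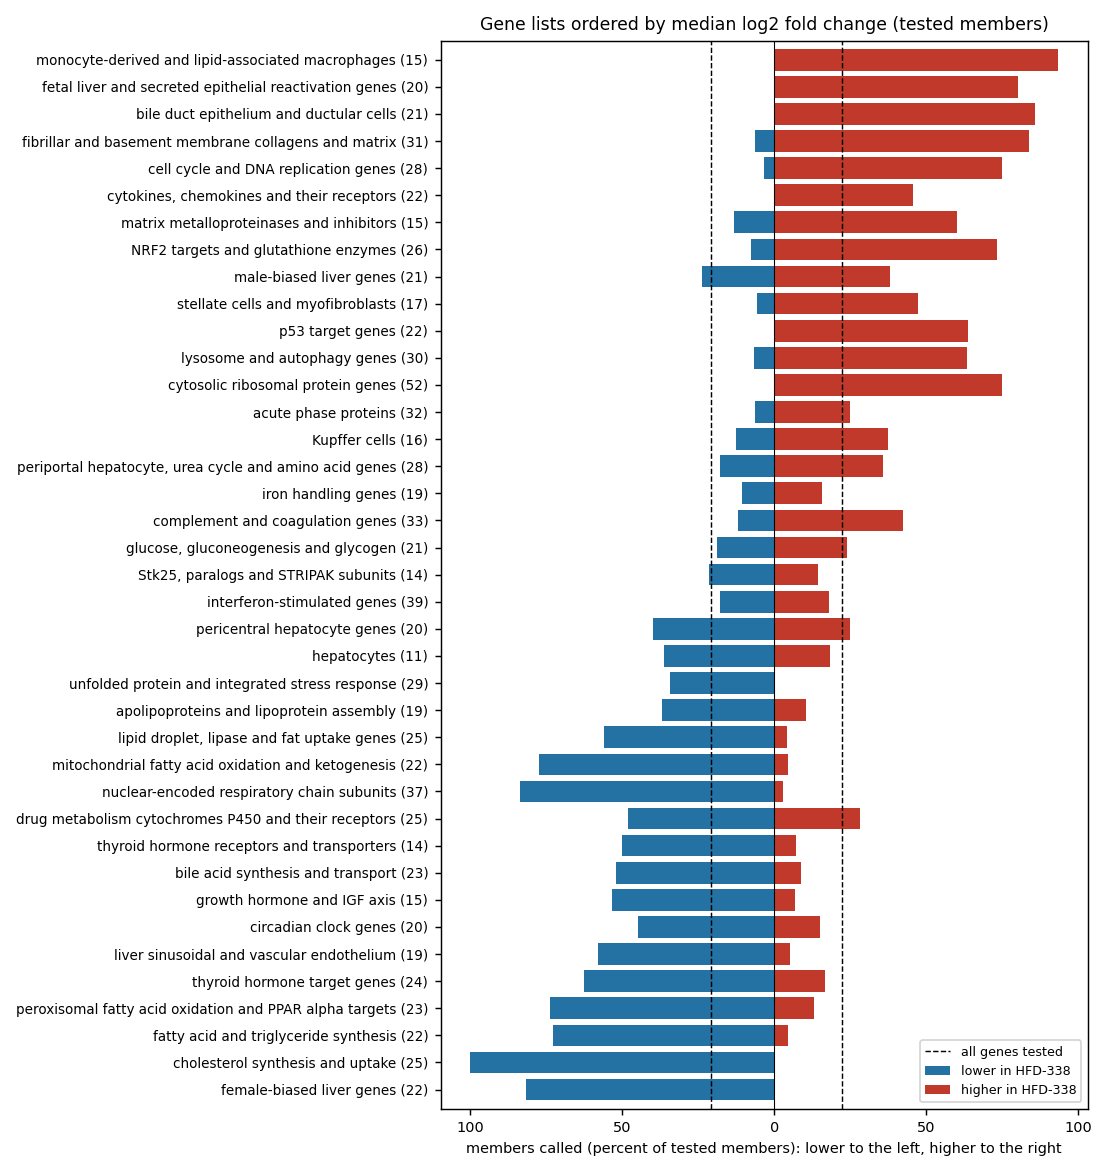
Bars give the share of tested members of each gene list with at least 10 tested members that was called lower (left) or higher (right) in HFD-338 against HFD-Res, with the number tested in parentheses; dashed lines mark 20.9% and 22.2%, the shares among all genes tested. Cholesterol genes and female-biased genes lie at the lower end, and macrophage, fetal, duct and matrix genes at the upper end.

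Stk25 was lower in HFD-338. It had 22.0, 21.9 and 20.5 CPM in HFD-338, against 46.9, 37.7 and 41.3 CPM in HFD-Res (log2 fold change -0.96 with an SE of 0.113, adjusted p = 2.36e-06), which put HFD-338 at 51.2% of HFD-Res. Every HFD-338 library lay below every HFD-Res library, while the HFD-Res libraries were near those of HFD-NS, at 48.6, 43.7 and 47.3 CPM. Exons of Stk25 (chromosome 1, 93548473 to 93563449 in mm39) share 23.1% of their length with Farp2, and reads in the shared stretch count for both genes. Stk24, the closest paralog, did not pass the test, with 21.1, 22.5 and 19.6 CPM in HFD-338, against 18.6, 20.2 and 19.9 CPM in HFD-Res (log2 fold change 0.11 with an SE of 0.137, adjusted p = 0.566). Stk26, the other paralog, was too low to test, at 0.798, 1.73 and 2.62 CPM in HFD-338, against 1.07, 0.92 and 0 CPM in HFD-Res. STRIPAK is the phosphatase and kinase complex in which these kinases sit. Among 16 genes of the kinases and the complex, 2 of 14 tested members rose and 3 fell, against 22.2% and 20.9% of all genes tested. Both directions together, the list was called no more often than all genes, and its median log2 fold change was -0.01. The sign of that median turned with RLE size factors and with recomputed TPM, among other settings. Besides Stk25 the falls were Fgfr1op2 (log2 fold change of -0.30, adjusted p = 0.0216) and Slmap (log2 fold change of -0.27, adjusted p = 0.0410), which are subunits of the complex. Pdcd10, an adaptor that binds the kinases, rose (log2 fold change of 0.35, adjusted p = 0.0139), as did the striatin-binding protein gene Cttnbp2nl (log2 fold change of 0.68, adjusted p = 0.0336). These 4 calls did not hold throughout: Pdcd10 no longer passed without HFD-338 replicate 19 (adjusted p = 0.0816) or HFD-Res replicate 29 (0.0519), Fgfr1op2 without HFD-338 replicate 18 (0.0523) or 19 (0.0685) or HFD-Res replicate 34 (0.103), Cttnbp2nl without HFD-338 replicate 17 (0.0511) or 18 (0.165) or HFD-Res replicate 29 (0.13) or 34 (0.119), and Slmap in 9 of the 11 alternatives.

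Dio1, Thrsp and Me1, which are target genes of thyroid hormone receptor, were far lower in HFD-338 than under resmetirom, and the median fall over the longer list of targets was smaller. Dio1, the deiodinase that activates and clears thyroid hormone and a classical receptor target, had 32.4, 45.1 and 39.4 CPM in HFD-338, against 674, 637 and 725 CPM in HFD-Res (log2 fold change -4.12 with an SE of 0.295, adjusted p = 5.38e-07). Thrsp, a nuclear regulator of lipogenesis, had 20.3, 15 and 27.2 CPM in HFD-338, against 361, 233 and 475 CPM in HFD-Res (log2 fold change -4.10 with an SE of 0.409, adjusted p = 1.86e-05). For Me1, which makes NADPH as malic enzyme, the libraries lay at 58.1, 65.3 and 61.3 CPM in HFD-338, against 321, 459 and 361 CPM in HFD-Res (log2 fold change -2.63 with an SE of 0.173, adjusted p = 1.5e-08). All HFD-338 libraries were below all HFD-Res libraries in these genes, 17.4-fold, 17.1-fold and 6.17-fold lower in that order. HFD-NS took a place between the groups. Dio1 was at 143, 142 and 124 CPM in HFD-NS, Thrsp at 94.2, 44.6 and 129 CPM in HFD-NS and Me1 at 128, 97.1 and 102 CPM in HFD-NS. The log2 fold change of Dio1 was -1.81 in HFD-338 against HFD-NS (adjusted p = 3.04e-04) and 2.32 in HFD-Res against HFD-NS (adjusted p = 1.02e-04). That of Thrsp was -2.10 in HFD-338 against HFD-NS (adjusted p = 0.00168) and 2.00 in HFD-Res against HFD-NS (adjusted p = 0.00400).

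Over 24 thyroid hormone target genes, all tested, 4 of 24 tested members rose and 15 fell, with a median log2 fold change of -0.82, beside a median of 0.000815 over all genes. Counted against HFD-NS, 2 rose and 7 fell in HFD-338, and 11 rose and 1 fell in HFD-Res. Gpd2, the mitochondrial glycerol phosphate dehydrogenase, fell (log2 fold change of -1.58, adjusted p = 1.31e-08), and so did Fgf21, a secreted hormone of fasting (log2 fold change of -3.14, adjusted p = 2.08e-04). Klf9, a transcription factor gene induced by thyroid hormone, did not pass (log2 fold change of -0.29, adjusted p = 0.176), and its groups overlapped, with 164, 166 and 227 CPM in HFD-338, against 232, 188 and 259 CPM in HFD-Res; without HFD-338 replicate 19 it passed (adjusted p = 0.0397). Among the rises were Ppargc1a, a coactivator of mitochondrial biogenesis (log2 fold change of 0.90, adjusted p = 0.00236), and Hr, a nuclear corepressor gene induced by thyroid hormone in brain (log2 fold change of 1.67, adjusted p = 0.0262). The call of Hr was lost with no low-count filter and without each of 4 libraries in turn, with an adjusted p of 0.122 without HFD-Res replicate 34.

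The receptor itself was lower too. Thrb, which encodes thyroid hormone receptor beta, had 24.9, 25.1 and 32.5 CPM in HFD-338, against 56.5, 51.8 and 50.7 CPM in HFD-Res (log2 fold change -0.95 with an SE of 0.122, adjusted p = 6.85e-06), with no overlap. Thra, which encodes the alpha receptor, did not pass (log2 fold change of -0.21, adjusted p = 0.326); its exons overlap those of Nr1d1 over 8.26% of their length. Over 15 genes of receptors, coregulators, deiodinases and transporters, 1 of 14 tested members rose and 7 fell, with a median log2 fold change of -0.48. Slc16a10, a carrier of aromatic amino acids and thyroid hormone, had 112, 114 and 143 CPM in HFD-338, against 229, 232 and 235 CPM in HFD-Res (log2 fold change -0.92 with an SE of 0.124, adjusted p = 1.16e-05). Slco1c1, a thyroxine carrier of low level in liver, was the rise, with 53 counts over the HFD-338 libraries and 2 over the HFD-Res libraries, a ratio of scaled counts of 17.2 with a counting interval of 4.53 to 146.

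**Figure D3:**
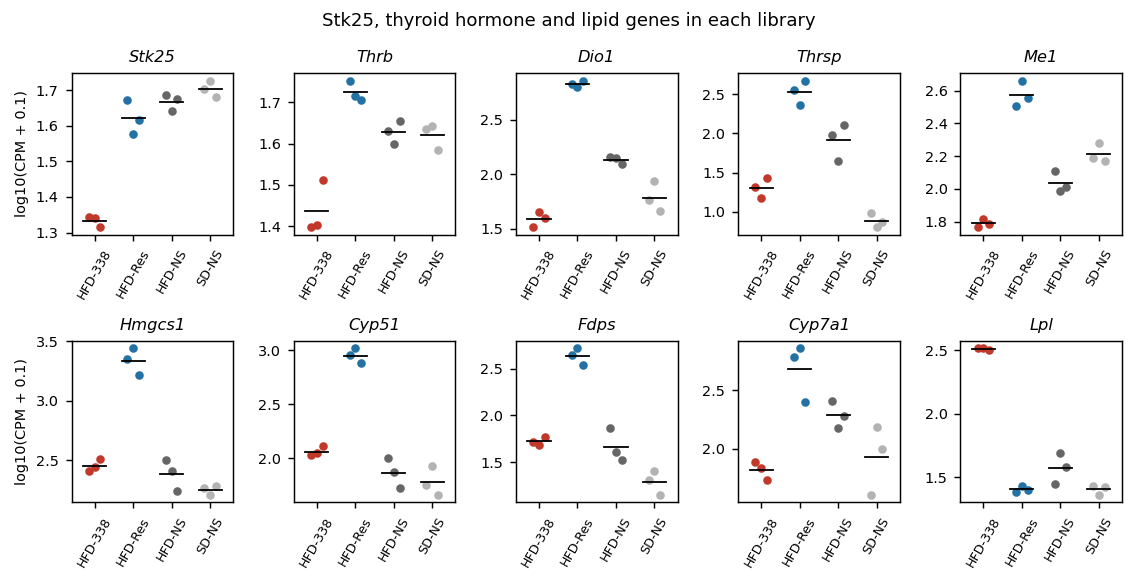
Points are single libraries and lines are group means on a log10 scale (CPM plus 0.1) in HFD-338, HFD-Res, HFD-NS and SD-NS. Thyroid hormone targets and cholesterol genes stand highest in HFD-Res, Stk25 is lowest in HFD-338, and Lpl is high in HFD-338 alone among the groups drawn.

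Genes of cholesterol synthesis and uptake formed the most uniform group of falls. All 25 genes of the list were tested and 0 of 25 tested members rose and 25 fell, with a median log2 fold change of -2.41. Their summed level was 2025 to 2324 CPM in HFD-338 and 7659 to 11350.0 CPM in HFD-Res, and 1905 to 2265 CPM in HFD-NS. Counted against HFD-NS, 6 rose and 4 fell in HFD-338, and 24 rose and 0 fell in HFD-Res. HFD-Res stood apart from both other groups, and the ranges of HFD-338 and HFD-NS overlapped.

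Genes of early and late steps of the pathway were among the larger falls. Hmgcs1, which makes HMG-CoA, had 255, 277 and 322 CPM in HFD-338, against 2257, 2767 and 1667 CPM in HFD-Res (log2 fold change -2.97 with an SE of 0.218, adjusted p = 1.02e-07). Fdps, which makes farnesyl diphosphate, had 52.3, 48.6 and 59.4 CPM in HFD-338, against 438, 518 and 349 CPM in HFD-Res (log2 fold change -3.02 with an SE of 0.271, adjusted p = 3.9e-06). Both genes were about as high in HFD-338 as in HFD-NS, where Hmgcs1 lay at 317, 255 and 173 CPM and Fdps at 72.6, 40.4 and 33.4 CPM in HFD-NS. Cyp51, the lanosterol demethylase, had 106, 110.5 and 128 CPM in HFD-338, against 901, 1038 and 754 CPM in HFD-Res (log2 fold change -2.96 with an SE of 0.279, adjusted p = 5.63e-06). Msmo1, a methylsterol oxidase, had 116, 112 and 146 CPM in HFD-338, against 959, 1085 and 728 CPM in HFD-Res (log2 fold change -2.89 with an SE of 0.184, adjusted p = 1.29e-08). No HFD-338 library reached the lowest HFD-Res library in any of these 4 genes. Idi1, the isopentenyl diphosphate isomerase, showed the largest fall of the list (log2 fold change of -3.32, adjusted p = 2.6e-06), but 86.3% of its exon length overlaps another gene, and its reads cannot be assigned to Idi1 alone. Hmgcs1, Cyp51, Msmo1 and Mvd were named after their values were seen, because their promoters are printed next.

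Promoters of these genes are shown because SREBP-2, the sterol-regulated activator of the pathway, binds sterol regulatory elements together with NF-Y, a factor that binds CCAAT boxes. In the RefSeq promoter table for GRCm38.p6, 17 of the 25 cholesterol genes had an entry. A CCAAT box in either orientation lay in the 250 bases before the start of 16 of these 17 genes (94.1%), against 37.5% of 27025 genes in the table and 40.3% of the 10495 tested genes with an entry. The motif TCACNCCAC, a form of the sterol regulatory element, was found on either strand in 1 of the 17, Hmgcs1, and in 1.22% of all genes. Of the other motifs searched on both strands, CACGTG was present in 4 of 17 (6.86% of all genes), AGGTCA in 3 (15.8%), TGACNNNGC in 3 (11.5%) and TTTGAA in 1 (18.3%). A match is a run of letters and not a measured site, and these genes were chosen by list, not by motif. The 150 bases before the start are printed 5′ to 3′ in the gene's direction, in lower case, for 4 genes with large falls. Each has a single entry, little exon overlap and a CCAAT box in this stretch. Not every chromosome entered this choice, so other genes that meet these criteria may have fallen further. Capitals mark CCAAT or its reverse complement ATTGG and, in Hmgcs1, the sterol regulatory element.
Hmgcs1 (GRCm38, chr13:119690201-119690350, plus strand): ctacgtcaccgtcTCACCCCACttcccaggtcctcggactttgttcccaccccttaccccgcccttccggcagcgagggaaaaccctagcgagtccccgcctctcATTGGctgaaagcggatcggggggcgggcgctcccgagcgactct
Cyp51 (GRCm38, chr5:4104698-4104847, minus strand): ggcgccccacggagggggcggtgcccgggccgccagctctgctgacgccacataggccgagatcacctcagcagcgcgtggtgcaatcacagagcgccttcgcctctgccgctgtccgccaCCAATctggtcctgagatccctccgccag
Msmo1 (GRCm38, chr8:64733579-64733728, minus strand): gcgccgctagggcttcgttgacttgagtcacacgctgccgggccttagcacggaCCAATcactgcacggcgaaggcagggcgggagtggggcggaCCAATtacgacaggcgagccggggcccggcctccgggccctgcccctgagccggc
Mvd (GRCm38, chr8:122443423-122443572, minus strand): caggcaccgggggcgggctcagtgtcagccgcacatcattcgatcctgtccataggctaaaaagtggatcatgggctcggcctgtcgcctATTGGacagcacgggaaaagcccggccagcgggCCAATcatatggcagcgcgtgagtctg
Msmo1 and Mvd each hold 2 boxes in this stretch, and Hmgcs1 and Cyp51 hold 1. Mvd, the mevalonate diphosphate decarboxylase, had 5.93, 7.17 and 7.46 CPM in HFD-338, against 43.5, 55.7 and 36.6 CPM in HFD-Res (log2 fold change -2.71 with an SE of 0.267, adjusted p = 1.06e-06), a fall close to that of the other genes shown.

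Lipogenic genes were lower in HFD-338. Of 22 genes of fatty acid and triglyceride synthesis, all tested, 1 of 22 tested members rose and 16 fell, with a median log2 fold change of -1.05. Me1, Thrsp, Fasn and Acaca are on the thyroid hormone target list as well. Against HFD-NS, 2 rose and 12 fell in HFD-338, and 11 rose and 0 fell in HFD-Res. Acacb, the acetyl-CoA carboxylase of the outer mitochondrial membrane, had 8.55, 9.03 and 8.25 CPM in HFD-338, against 69.4, 80.0 and 92.5 CPM in HFD-Res (log2 fold change -3.23 with an SE of 0.199, adjusted p = 6.86e-09). Pnpla3, a droplet protein whose human form carries a fatty liver variant, had 1.03, 0.990 and 0.785 CPM in HFD-338, against 6.21, 9.89 and 17.9 CPM in HFD-Res (log2 fold change -3.60 with an SE of 0.506, adjusted p = 2.9e-05). The groups were apart in both genes, and Pnpla3 was near 1 CPM in every HFD-338 library. Scd2, a desaturase, was the single rise (log2 fold change of 0.82, adjusted p = 0.0158), and its call was lost without HFD-Res replicate 34 (adjusted p = 0.118) or HFD-338 replicate 18 (0.0505).

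Genes of fat burning were lower as well, by smaller steps. In mitochondrial fatty acid oxidation and ketogenesis, 1 of 22 tested members rose and 17 fell, with a median log2 fold change of -0.43, of 22 listed. Cpt2, the inner-membrane carnitine palmitoyltransferase, had 110.1, 98.8 and 112 CPM in HFD-338, against 204, 169 and 182 CPM in HFD-Res (log2 fold change -0.79 with an SE of 0.0966, adjusted p = 3.96e-06). Acadvl, the very-long-chain acyl-CoA dehydrogenase, had 268, 256 and 261 CPM in HFD-338, against 448, 443 and 443 CPM in HFD-Res (log2 fold change -0.76 with an SE of 0.0945, adjusted p = 4.45e-06). Etfdh, which hands electrons to the respiratory chain, fell (log2 fold change of -0.67, adjusted p = 2.99e-04). In these 3 genes the groups did not overlap, which the choice of named genes required. Pdk4, a kinase that restrains pyruvate oxidation, was the rise (log2 fold change of 1.11, adjusted p = 0.0428), but its call was lost in 6 of the 11 alternatives, including without each library other than HFD-338 replicate 19. For peroxisomal oxidation and PPAR alpha targets, 3 of 23 tested members rose and 17 fell, with a median log2 fold change of -0.96, of 23 listed. Acot3, an acyl-CoA thioesterase, fell (log2 fold change of -3.18, adjusted p = 4.12e-04). The rises of that list were Crot, a carnitine octanoyltransferase (log2 fold change of 0.89, adjusted p = 4.92e-05), Cyp4a12a (log2 fold change of 4.52, adjusted p = 8.89e-04) and Cyp4a12b (log2 fold change of 5.09, adjusted p = 0.0103); the last pair are also on the list of male-biased genes. For the mitochondrial list counted against HFD-NS, 0 rose and 19 fell in HFD-338, and 1 rose and 4 fell in HFD-Res.

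Among 26 genes of lipid droplets, lipases and fat uptake, 25 were tested. Of these, 14 fell and 1 rose, with a median log2 fold change of -0.42, and 9 fell with recomputed TPM or without HFD-Res replicate 29 or 34. Mgll, the monoacylglycerol lipase, had 105, 86.6 and 87.8 CPM in HFD-338, against 438, 573 and 503 CPM in HFD-Res (log2 fold change -2.44 with an SE of 0.139, adjusted p = 3.32e-10). Fabp1, the abundant fatty acid carrier of hepatocytes, had 2342, 2259.7 and 2813 CPM in HFD-338, against 6333, 5650.3 and 7008 CPM in HFD-Res (log2 fold change -1.36 with an SE of 0.130, adjusted p = 1.88e-07). G0s2, an inhibitor of the triglyceride lipase ATGL, fell (log2 fold change of -1.37, adjusted p = 6.7e-06), and so did Fitm1, which packs triglyceride into droplets (log2 fold change of -1.89, adjusted p = 9e-04). Against this direction, Lpl, the lipoprotein lipase that is expressed by macrophages and little by adult hepatocytes, had 326, 327 and 318 CPM in HFD-338, against 24.2, 26.7 and 25.0 CPM in HFD-Res (log2 fold change 3.68 with an SE of 0.401, adjusted p = 3.63e-05). Its HFD-338 libraries lay close together and 12.8-fold above HFD-Res, and HFD-NS was low too, at 28.0, 49.3 and 37.9 CPM.

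Bile acid and sterol export genes moved in different ways. Cyp7a1, the rate-limiting enzyme of bile acid synthesis, had 77.0, 67.9 and 53.3 CPM in HFD-338, against 606, 722 and 248.9 CPM in HFD-Res (log2 fold change -2.99 with an SE of 0.504, adjusted p = 8.29e-04). HFD-Res replicate 34 was the lowest of its group but still above each HFD-338 library, and HFD-NS lay at 255, 149.7 and 189 CPM. Abcg5 and Abcg8 together encode the exporter that moves cholesterol into bile. Abcg8 had 38.7, 49.7 and 51.2 CPM in HFD-338, against 176, 148 and 151 CPM in HFD-Res (log2 fold change -1.77 with an SE of 0.165, adjusted p = 6.02e-07), and Abcg5 fell too (log2 fold change of -1.50, adjusted p = 1.02e-04). Abcc3, an exporter of bile acids and conjugates to blood, went the other way, with 226, 213 and 237 CPM in HFD-338, against 19.9, 16.1 and 14.7 CPM in HFD-Res (log2 fold change 3.74 with an SE of 0.141, adjusted p = 9e-13). It was lowest in HFD-Res, and the HFD-NS libraries lay at 327, 370.4 and 328 CPM, above HFD-338. Exons of Abcc3 overlap another gene over 6.71% of their length. Abcc4, a second exporter of this kind, rose (log2 fold change of 2.15, adjusted p = 3.32e-06). Over 25 bile acid genes, 2 of 23 tested members rose and 12 fell, with a median log2 fold change of -0.54. For apolipoproteins and lipoprotein assembly, 2 of 19 tested members rose and 7 fell, with a median log2 fold change of -0.33; 1 rose without HFD-338 replicate 17 or HFD-Res replicate 30 or 34. Mttp, which loads lipid onto apolipoprotein B, fell (log2 fold change of -0.78, adjusted p = 6.85e-06), and Tm6sf2, which acts in the same export, fell (log2 fold change of -1.06, adjusted p = 5.74e-05).

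Genes that differ between male and female mouse liver showed some of the widest gaps. These genes follow the pattern of growth hormone secretion, through STAT5b. Of 22 female-biased genes, all tested, 0 of 22 tested members rose and 18 fell, with a median log2 fold change of -4.91. Counted against HFD-NS, 2 rose and 7 fell in HFD-338, and 14 rose and 0 fell in HFD-Res. Sult2a1, a sulfotransferase of steroids and bile acids, had 1.14, 0.618 and 1.05 CPM in HFD-338, against 368, 340.4 and 254 CPM in HFD-Res (log2 fold change -8.39 with an SE of 0.232, adjusted p = 9.3e-14). Cyp3a16, a steroid hydroxylase, had 0.570, 0.618 and 1.05 CPM in HFD-338, against 374, 313 and 111 CPM in HFD-Res (log2 fold change -8.46 with an SE of 0.602, adjusted p = 1.41e-06). In HFD-NS both were as low as in HFD-338, with Sult2a1 at 1.40, 0.372 and 0.843 CPM and Cyp3a16 at 0.234, 0.621 and 1.69 CPM in HFD-NS. A1bg, a secreted immunoglobulin-like protein gene, had 3 counts over the HFD-338 libraries and 431 over the HFD-Res libraries, a ratio of scaled counts of 221 with a counting interval of 75.2 to 1080.0. Prlr, the prolactin receptor, had 30.8, 70.1 and 49.5 CPM in HFD-338, against 376, 413 and 336 CPM in HFD-Res (log2 fold change -2.90 with an SE of 0.309, adjusted p = 1.99e-05). Here HFD-NS was nearer to HFD-Res, at 184, 264 and 245 CPM. Copies of the Sult2a and Cyp3a families are close in sequence, and how reads were shared among them is uncertain.

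Male-biased genes were called in both directions, with falls near the share of all genes. Of 23 listed, 1 was not in the table and 8 of 21 tested members rose and 5 fell, with a median log2 fold change of 0.87. Among all genes tested 22.2% rose and 20.9% fell. Without HFD-338 replicate 17, 6 of the list rose and 6 fell. Mup20, which encodes the male pheromone darcin, had 30705, 18505 and 35599.8 CPM in HFD-338, against 772, 922 and 969 CPM in HFD-Res (log2 fold change 4.99 with an SE of 0.579, adjusted p = 6.11e-05). Cyp2d9, a testosterone hydroxylase, had 672, 413 and 687 CPM in HFD-338, against 37.7, 35.7 and 66.7 CPM in HFD-Res (log2 fold change 3.65 with an SE of 0.449, adjusted p = 8.83e-05). C6, a complement component, had 301, 173 and 239 CPM in HFD-338, against 18.4, 19.3 and 27.3 CPM in HFD-Res (log2 fold change 3.44 with an SE of 0.667, adjusted p = 0.00204). All HFD-338 libraries of these genes exceeded all HFD-Res libraries. Cyp4a12a, an omega-hydroxylase of fatty acids, rose (log2 fold change of 4.52, adjusted p = 8.89e-04). Against them, Mup17 had 42.9, 30.2 and 51.0 CPM in HFD-338, against 18402, 19964 and 20292 CPM in HFD-Res (log2 fold change -8.88 with an SE of 1.03, adjusted p = 7.08e-05), and Mup11 (log2 fold change of -8.57, adjusted p = 2.52e-04) and Mup7 (log2 fold change of -7.74, adjusted p = 0.00335) also fell. Mup9, which is not on the list, was among the largest falls of all genes, with 15.2, 10.6 and 22.1 CPM in HFD-338, against 9054, 8787 and 8603 CPM in HFD-Res (log2 fold change -9.11 with an SE of 0.270, adjusted p = 9e-13). In HFD-NS, Mup9 lay at 21.8, 17.6 and 25.0 CPM and Mup20 at 7880.3, 2291 and 3587 CPM in HFD-NS. Mup genes encode major urinary proteins, a multicopy family on chromosome 4, and exon overlaps with another annotated gene reach 70.9% for Mup15, so values of single copies are uncertain. Of 16 genes of the growth hormone and IGF axis, 1 of 15 tested members rose and 8 fell, with a median log2 fold change of -0.64. Only 4 fell with recomputed TPM, without HFD-338 replicate 18 or without HFD-Res replicate 34, and 5 without HFD-Res replicate 30. Igfals, which carries IGF-1 in blood, fell (log2 fold change of -1.42, adjusted p = 1.73e-04), as did Stat5a (log2 fold change of -1.18, adjusted p = 2.13e-04).

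**Figure D4:**
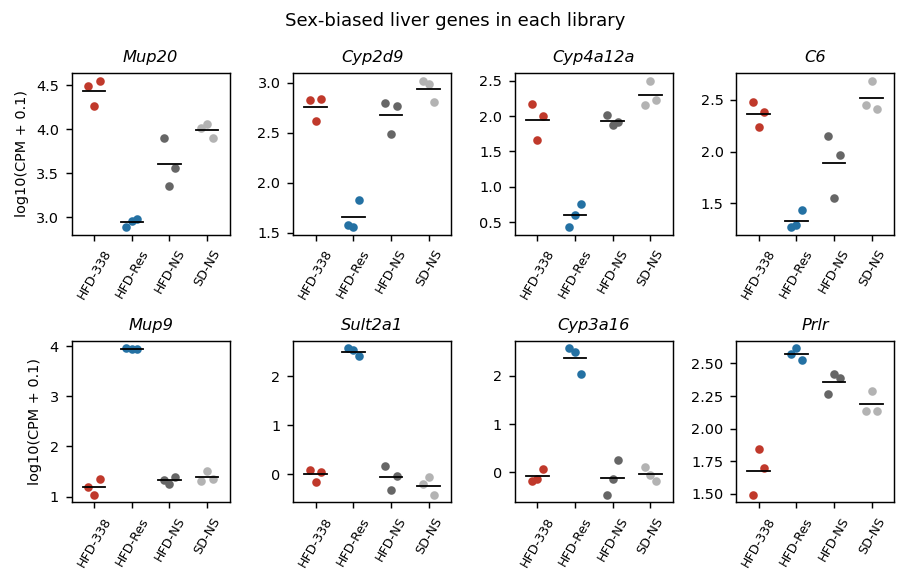
Points are single libraries and lines are group means on a log10 scale (CPM plus 0.1). Sult2a1, Cyp3a16 and Mup9 are high in HFD-Res alone among the groups drawn, whereas Mup20, Cyp2d9, Cyp4a12a and C6 are lowest there.

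Cytochrome P450 genes of drug metabolism were called lower more often than higher, and antioxidant genes rose. Of 26 P450 and receptor genes, 7 of 25 tested members rose and 12 fell, with a median log2 fold change of -0.47. Among all genes tested 22.2% rose and 20.9% fell, so the rises were near the share of all genes. On the female-biased list are also 6 of the P450 genes. Cyp3a11, the main drug-metabolising Cyp3a of mouse liver, had 2275, 2089 and 3681 CPM in HFD-338, against 337.8, 267 and 313 CPM in HFD-Res (log2 fold change 3.13 with an SE of 0.350, adjusted p = 2.69e-05), and HFD-NS was near HFD-338, at 1939, 1890.1 and 1328 CPM. Cyp1a2, a caffeine oxidase, rose (log2 fold change of 1.08, adjusted p = 7.08e-05), and Cyp2f2, a naphthalene oxidase of periportal hepatocytes, fell (log2 fold change of -1.63, adjusted p = 0.00108). NRF2 is the transcription factor that raises antioxidant and glutathione genes. Of 26 of its targets and glutathione enzymes, all tested, 19 of 26 tested members rose and 2 fell, with a median log2 fold change of 0.95. Against HFD-NS, 14 rose and 1 fell in HFD-338, and 1 rose and 4 fell in HFD-Res. Gsta1, a glutathione transferase, had 21.7, 33.5 and 13.5 CPM in HFD-338, against 0.856, 0.460 and 0.291 CPM in HFD-Res (log2 fold change 5.45 with an SE of 0.675, adjusted p = 2.95e-05). Slc7a11, the cystine carrier that feeds glutathione synthesis, had 327 counts over the HFD-338 libraries and 3 over the HFD-Res libraries, a ratio of scaled counts of 70.8 with a counting interval of 24.0 to 345. HFD-338 replicate 19 was lowest of its group in both genes, and still above every HFD-Res library. Gpx2, a glutathione peroxidase of epithelia, had 180 counts over the HFD-338 libraries and 1 over the HFD-Res libraries, a ratio of scaled counts of 117 with a counting interval of 20.7 to 4640.0. Osgin1 (log2 fold change of -1.06, adjusted p = 0.0125) and Tkt (log2 fold change of -0.35, adjusted p = 0.0199) were the falls; the call of Osgin1 was lost without HFD-Res replicate 34 (adjusted p = 0.0537), and that of Tkt without HFD-Res replicate 34 (0.063) or HFD-338 replicate 19 (0.0765) and with recomputed TPM (0.275).

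Markers of bile duct epithelium and ductular cells were higher in HFD-338. Of 24 listed, 21 were tested and 18 of 21 tested members rose and 0 fell, with a median log2 fold change of 2.28. Their summed level was 1195 to 1301 CPM in HFD-338 and 359.7 to 405 CPM in HFD-Res, and 400.4 to 504 CPM in HFD-NS. Onecut1, a listed gene not called in the main fit, passed as a fall in 2 alternatives. These were the fit of the 2 groups alone (log2 fold change of -1.72, adjusted p = 4.89e-04) and DESeq2 (log2 fold change of -1.73, adjusted p = 0.0479). Epcam, an adhesion protein of biliary epithelium, had 20.1, 19.0 and 19.8 CPM in HFD-338, against 3.0, 2.76 and 2.76 CPM in HFD-Res (log2 fold change 2.78 with an SE of 0.284, adjusted p = 4.33e-07). Sox9, a transcription factor of biliary cells, had 46.9, 35.3 and 40.0 CPM in HFD-338, against 5.78, 7.36 and 4.36 CPM in HFD-Res (log2 fold change 2.84 with an SE of 0.268, adjusted p = 8.7e-07). Spp1, which encodes osteopontin and is made by biliary cells and macrophages, had 577, 519 and 663 CPM in HFD-338, against 75.4, 66.2 and 65.5 CPM in HFD-Res (log2 fold change 3.09 with an SE of 0.447, adjusted p = 3e-04). In all 3 the HFD-338 libraries lay above every HFD-Res library. Keratins of bile ducts were low but higher in HFD-338: Krt19 had 5.47, 3.22 and 5.76 CPM in HFD-338, against 1.07, 1.84 and 0.872 CPM in HFD-Res (log2 fold change 1.97 with an SE of 0.450, adjusted p = 0.00171), and Krt7 had 3.08, 2.35 and 3.14 CPM in HFD-338, against 0.428, 0.460 and 0.581 CPM in HFD-Res (log2 fold change 2.47 with an SE of 0.471, adjusted p = 3.86e-04). Krt23 rose as well (log2 fold change of 3.57, adjusted p = 2.52e-06), and Cftr, the chloride channel of cholangiocytes, had 61 counts over the HFD-338 libraries and 2 over the HFD-Res libraries, a ratio of scaled counts of 19.8 with a counting interval of 5.25 to 167. Sox9 in HFD-NS, at 14.4, 12.2 and 10.3 CPM, was above HFD-Res, and its log2 fold change was 1.73 in HFD-338 against HFD-NS (adjusted p = 3.1e-05) and -1.11 in HFD-Res against HFD-NS (adjusted p = 0.0183). In bulk liver, fewer cells of a type and less RNA per cell cannot be told apart, here and for every cell type below.

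Genes of the fetal liver and of injured epithelium rose with them. Of 29 listed, 20 were tested and 16 of 20 tested members rose and 0 fell, with a median log2 fold change of 2.32; the others were too low. Gpc3, a glypican of fetal liver and liver cancer, had 41.7, 67.5 and 23.4 CPM in HFD-338, against 0.856, 0.460 and 0.436 CPM in HFD-Res (log2 fold change 6.24 with an SE of 0.521, adjusted p = 5.48e-07). H19, an imprinted noncoding RNA of fetal liver, had 17.1, 31.7 and 11.6 CPM in HFD-338, against 0.428, 0.230 and 0.145 CPM in HFD-Res (log2 fold change 6.22 with an SE of 0.589, adjusted p = 4.4e-07). For Spink1, a secreted trypsin inhibitor, the values were 36.1, 45.1 and 28.1 CPM in HFD-338, against 0, 0 and 0.726 CPM in HFD-Res (log2 fold change 6.79 with an SE of 0.484, adjusted p = 2.05e-08). No HFD-Res library exceeded 1 CPM in these genes, and every HFD-338 library was above 10 CPM. At such HFD-Res levels a rise was the only call open to Gpc3, H19 and Spink1, which are among the 16 rises. Afp, the fetal counterpart of albumin, had 25.7, 33.4 and 8.38 CPM in HFD-338, against 4.28, 3.91 and 1.16 CPM in HFD-Res (log2 fold change 2.94 with an SE of 0.488, adjusted p = 3.18e-04). Lcn2, a secreted siderophore-binding protein, rose with a wide spread, at 181, 324 and 49.2 CPM in HFD-338, against 13.3, 5.98 and 12.2 CPM in HFD-Res (log2 fold change 4.11 with an SE of 0.971, adjusted p = 0.00642). Mature hepatocyte markers moved both ways: 2 of 11 tested members rose and 4 fell, with a median log2 fold change of -0.25. Among all genes tested 22.2% rose and 20.9% fell. Alb had 75622, 82282 and 82828 CPM in HFD-338, against 59945, 54619 and 53817 CPM in HFD-Res (log2 fold change 0.52 with an SE of 0.159, adjusted p = 0.0139). Leaving out HFD-Res replicate 34 ended that call, at an adjusted p of 0.0554. Hnf4a, the hepatocyte transcription factor, had 359, 357 and 407 CPM in HFD-338, against 634, 550.4 and 724 CPM in HFD-Res (log2 fold change -0.76 with an SE of 0.109, adjusted p = 2.06e-05).

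Spink1 is also made by pancreatic acinar cells and stands on the list of their markers. Of 13 such markers 3 were tested, and the 1 rise was Spink1 itself. Cela1, an elastase, had 6.27, 5.07 and 8.77 CPM in HFD-338, against 22.1, 25.1 and 40.1 CPM in HFD-Res (log2 fold change -2.14 with an SE of 0.463, adjusted p = 0.00328), a fall without overlap, and Cela2a did not pass. Prss1, Try4, Cela3b, Cpa1, Cpb1 and Ctrb1 had no count in either group. Prss2, Try5 and Pnlip had no count in HFD-338 but some in HFD-Res, and Amy2a5 had counts in both groups; all 4 were too low to test. The list summed to 39.3 to 52.6 CPM in HFD-338 and 23.8 to 42.4 CPM in HFD-Res, Spink1 included, and the part of such cells in the result was not tested.

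Collagen and matrix genes were higher in HFD-338. Of 31 listed, all tested, 26 of 31 tested members rose and 2 fell, with a median log2 fold change of 1.67. Counted against HFD-NS, 25 rose and 2 fell in HFD-338, and 1 rose and 1 fell in HFD-Res. Col1a1, a chain of the main scar collagen, had 114, 77.7 and 68.3 CPM in HFD-338, against 6.85, 4.83 and 9.44 CPM in HFD-Res (log2 fold change 3.57 with an SE of 0.567, adjusted p = 5.36e-04). Col3a1, its partner in young scar, had 371, 262 and 209 CPM in HFD-338, against 19.1, 23.9 and 18.7 CPM in HFD-Res (log2 fold change 3.78 with an SE of 0.460, adjusted p = 8.94e-05). Eln, which encodes elastin, had 20.8, 16.3 and 11.8 CPM in HFD-338, against 0.856, 2.07 and 1.02 CPM in HFD-Res (log2 fold change 3.67 with an SE of 0.431, adjusted p = 3.9e-06). Replicate 17 was the highest HFD-338 library in each of these genes and replicate 19 the lowest, yet no library overlapped between the groups. Lum, a collagen-binding proteoglycan, rose (log2 fold change of 2.83, adjusted p = 3.86e-05). The falls were Col15a1, a basement membrane collagen (log2 fold change of -1.31, adjusted p = 0.00282), and Fn1, fibronectin, which hepatocytes secrete in bulk (log2 fold change of -0.62, adjusted p = 1.35e-04). The mean of HFD-NS lay between the groups in Col1a1 and Col3a1. In Col1a1, however, HFD-NS replicate 16 (8.64 CPM) was below HFD-Res replicate 34 (9.44 CPM). The log2 fold change of Col1a1 was 2.56 in HFD-338 against HFD-NS (adjusted p = 0.00225) and -1.02 in HFD-Res against HFD-NS (adjusted p = 0.338). That of Col3a1 was 2.61 in HFD-338 against HFD-NS (adjusted p = 6.55e-04) and -1.16 in HFD-Res against HFD-NS (adjusted p = 0.133).

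Enzymes that cut matrix rose in part. Of 19 metalloproteinases and inhibitors, 9 of 15 tested members rose and 2 fell, with a median log2 fold change of 1.19; 1 of the falls was lost with recomputed TPM and without HFD-338 replicate 17 or 19 or HFD-Res replicate 30. Mmp7, matrilysin, an epithelial protease made by biliary cells, had 21.5, 19.3 and 22.8 CPM in HFD-338, against 0, 0.230 and 0.581 CPM in HFD-Res (log2 fold change 6.01 with an SE of 0.480, adjusted p = 2.44e-08); 11% of its exon length overlaps another gene. Mmp2, a gelatinase of stromal cells, had 32.2, 23.4 and 25.0 CPM in HFD-338, against 1.93, 3.68 and 4.21 CPM in HFD-Res (log2 fold change 2.99 with an SE of 0.272, adjusted p = 1.06e-07). The groups were well apart in both. Timp1, an inhibitor of these proteases, had 61 counts over the HFD-338 libraries and 2 over the HFD-Res libraries, a ratio of scaled counts of 19.8 with a counting interval of 5.25 to 167, and Mmp19 fell (log2 fold change of -0.83, adjusted p = 2.55e-04).

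Markers of stellate cells and myofibroblasts, which make most liver collagen, also held more rises than falls. Col1a1, Col3a1, Dcn and Lum, 4 of the 8 rises, are on the matrix list too, so the lists are not separate evidence. Of 17, all tested, 8 of 17 tested members rose and 1 fell, with a median log2 fold change of 0.82, and their sum was 977 to 1695 CPM in HFD-338 and 593 to 654 CPM in HFD-Res. It was 1695, 1278 and 977 CPM in replicates 17, 18 and 19. Acta2, a myofibroblast actin, was low in both groups, with 4.10, 1.48 and 0.916 CPM in HFD-338, against 0.214, 0.460 and 0.581 CPM in HFD-Res (log2 fold change 2.29 with an SE of 0.678, adjusted p = 0.0109). With replicate 17 of HFD-338 left out it no longer passed (adjusted p = 0.111). Of 7 mesothelial markers 3 were tested and 2 rose, Gpm6a and Krt19, of which Krt19 is also the duct keratin above, with a sum of 12.7 to 27.2 CPM in HFD-338 and 5.57 to 8.97 CPM in HFD-Res. Msln, a defining marker, was too low to test. The part of these cells in the matrix result was not tested.

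Macrophage genes differed by type. Of 15 genes that mark monocyte-derived or lipid-associated macrophages, all tested, 14 of 15 tested members rose and 0 fell, with a median log2 fold change of 2.46. Their sum was 1381 to 1613 CPM in HFD-338 and 429.6 to 455 CPM in HFD-Res, and 476 to 581 CPM in HFD-NS; Spp1, above, is on this list too. Gpnmb, a glycoprotein of lipid-laden macrophages, had 29.5, 25.4 and 20.3 CPM in HFD-338, against 0.428, 0.920 and 0.726 CPM in HFD-Res (log2 fold change 5.14 with an SE of 0.430, adjusted p = 9.51e-08). Cx3cr1, the fractalkine receptor of monocytes, had 24.9, 22.6 and 16 CPM in HFD-338, against 1.07, 2.76 and 3.34 CPM in HFD-Res (log2 fold change 3.09 with an SE of 0.386, adjusted p = 1.26e-05). In both genes the HFD-338 libraries lay above every HFD-Res library. Resident Kupffer cell markers were mixed: 6 of 16 tested members rose and 2 fell, with a median log2 fold change of 0.28, with sums of 559.7, 787 and 342 CPM in HFD-338 replicates 17, 18 and 19, against 391 to 471 CPM in HFD-Res. Without HFD-338 replicate 18, 6 of them rose and 5 fell, with a median of -0.18. Among all genes tested 22.2% rose and 20.9% fell. Adgre1, which encodes the macrophage antigen F4/80, rose (log2 fold change of 1.84, adjusted p = 3.29e-04), and C1qa rose (log2 fold change of 1.53, adjusted p = 0.00513). Cd163, a haemoglobin scavenger receptor of resident macrophages, had 0.342, 1.11 and 0.131 CPM in HFD-338, against 17.8, 9.89 and 11.9 CPM in HFD-Res (log2 fold change -4.59 with an SE of 0.672, adjusted p = 1.5e-04); its exons overlap another gene over 21.2% of their length.

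Cytokine, chemokine and receptor genes were called higher more often than all genes tested (22.2%). Summed markers of neutrophils and lymphocytes were low, except those of neutrophils in 1 library. Of 29 cytokine, chemokine and receptor genes, 10 of 22 tested members rose and 0 fell, with a median log2 fold change of 1.20, and 16 rose with recomputed TPM. Cxcr4, a receptor for Cxcl12, had 8.66, 8.91 and 8.64 CPM in HFD-338, against 0.428, 0.230 and 1.31 CPM in HFD-Res (log2 fold change 3.53 with an SE of 0.375, adjusted p = 7.31e-07), and Cx3cl1, the ligand of Cx3cr1, rose (log2 fold change of 3.31, adjusted p = 0.00114). Neutrophil markers summed to 14.6, 153 and 7.59 CPM in HFD-338 replicates 17, 18 and 19, against 2.99 to 4.94 CPM in HFD-Res, and 3 of 9 were tested. All 3 rose, but 0 did so without HFD-Res replicate 30, and 1 without HFD-338 replicate 18 or HFD-Res replicate 29 or 34. S100a8, a neutrophil calcium-binding protein, had 3.88, 66.7 and 2.62 CPM in HFD-338, against 1.93, 0.460 and 2.03 CPM in HFD-Res (log2 fold change 3.95 with an SE of 1.40, adjusted p = 0.0423). Its level rests on replicate 18, without which the log2 fold change was 1.08 (adjusted p = 0.314), and the call was also lost without any 1 of the HFD-Res libraries. Of 12 T and NK cell markers 4 were tested and 3 rose, with sums of 10.3 to 20.4 CPM in HFD-338 and 5.06 to 6.42 CPM in HFD-Res. Without HFD-Res replicate 34 none of the T and NK cell markers was called (0 rises), and 1 rose without HFD-338 replicate 17 or 18 or HFD-Res replicate 30. Of 8 B cell markers 3 were tested, 0 were called by edgeR or DESeq2, and 1 had an unadjusted p under 0.05; 1 rose without HFD-338 replicate 17. Red blood cell markers had 1 call among 5 tested of 7, Alas2 (log2 fold change of 1.44, adjusted p = 1.24e-05), with sums of 232 to 371 CPM in HFD-338 and 160.0 to 231 CPM in HFD-Res.

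Endothelial markers were lower in HFD-338. Of 20 genes of sinusoidal and vascular endothelium, 1 of 19 tested members rose and 11 fell, with a median log2 fold change of -0.80. Lyve1, a hyaluronan receptor of sinusoidal endothelium, had 9.69, 8.41 and 5.63 CPM in HFD-338, against 24.2, 19.3 and 22.4 CPM in HFD-Res (log2 fold change -1.47 with an SE of 0.198, adjusted p = 1.22e-05). Kdr, the main receptor of VEGF, had 22.3, 13.2 and 10.1 CPM in HFD-338, against 42.8, 56.1 and 41.4 CPM in HFD-Res (log2 fold change -1.60 with an SE of 0.257, adjusted p = 2.5e-04). Replicate 19 was the lowest HFD-338 library in both, and none overlapped HFD-Res. Bmp2, which endothelium sends to hepatocytes to raise hepcidin, fell (log2 fold change of -1.42, adjusted p = 1.6e-05). The summed markers were 399, 293 and 219 CPM in HFD-338, against 465 to 542 CPM in HFD-Res, and without replicate 19 there were 7 falls and 2 rises.

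Cell division genes rose in HFD-338. Of 30 genes of cell cycle and DNA replication, 21 of 28 tested members rose and 1 fell, with a median log2 fold change of 1.27, and against HFD-NS 21 rose and 0 fell in HFD-338, and 2 rose and 0 fell in HFD-Res. Mki67, the proliferation marker Ki-67, had 26.5, 37.4 and 25.0 CPM in HFD-338, against 4.07, 1.84 and 1.74 CPM in HFD-Res (log2 fold change 3.57 with an SE of 0.575, adjusted p = 4.07e-04). Top2a, the topoisomerase of dividing cells, had 16.4, 20.2 and 9.69 CPM in HFD-338, against 0.428, 1.15 and 0.872 CPM in HFD-Res (log2 fold change 4.21 with an SE of 0.436, adjusted p = 6.01e-07). Ccnb1, the mitotic cyclin, had 158 counts over the HFD-338 libraries and 2 over the HFD-Res libraries, a ratio of scaled counts of 51.3 with a counting interval of 14 to 427. Bub1, a spindle checkpoint kinase, had 52 counts over the HFD-338 libraries and 1 over the HFD-Res libraries, a ratio of scaled counts of 33.8 with a counting interval of 5.80 to 1360.0. Libraries of the groups did not overlap in any of these. Ckap2, a spindle protein, was among the 15 largest rises, with 252 counts over the HFD-338 libraries and 2 over the HFD-Res libraries, a ratio of scaled counts of 81.8 with a counting interval of 22.4 to 679. The fall on this list was Ccnd1, cyclin D1, which was named after its values were seen; its log2 fold change of -1.03 lost its call in 7 of 11 alternatives. The dividing cells cannot be assigned to a cell type from these libraries.

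CCAAT boxes are also common before mitotic genes, where NF-Y acts with other factors. Of the 24 cell cycle genes with an entry in the promoter table, 18 (75%) held a CCAAT box in the 250 bases before the start, against 37.5% of all genes. Thyroid hormone targets and NRF2 targets were searched as well. They held a CCAAT box in 9 of 18 and in 11 of 22 genes with an entry, 50% in each list. AGGTCA was present in 2 of the 18 thyroid hormone targets (11.1%), against 15.8% of all genes. The 150 bases before the start of 2 genes with large rises are printed with the box in capitals, to set beside the cholesterol promoters. They were taken by the same choice and with the same limit, so other genes may have risen further.
Ccnb1 (GRCm38, chr13:100786487-100786636, minus strand): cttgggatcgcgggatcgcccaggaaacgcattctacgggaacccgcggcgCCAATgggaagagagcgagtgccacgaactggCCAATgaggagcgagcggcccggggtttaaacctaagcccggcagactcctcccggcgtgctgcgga
Bub1 (GRCm38, chr2:127831860-127832009, minus strand): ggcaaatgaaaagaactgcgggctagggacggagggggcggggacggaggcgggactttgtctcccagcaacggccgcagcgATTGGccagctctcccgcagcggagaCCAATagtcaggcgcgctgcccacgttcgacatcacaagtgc
Each holds 2 boxes, as do Msmo1 and Mvd. At least 1 box was required for a promoter to be printed, and the part of the boxes in either result was not tested.

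Targets of p53, the factor that halts division after damage, rose in most cases. Of 22, all tested, 14 of 22 tested members rose and 0 fell, with a median log2 fold change of 0.81. Cdkn1a, the cell cycle inhibitor p21, had 116, 133 and 71.5 CPM in HFD-338, against 37.9, 23.2 and 40.1 CPM in HFD-Res (log2 fold change 1.65 with an SE of 0.353, adjusted p = 0.00333). Phlda3, an inhibitor of AKT signalling, had 8.32, 9.40 and 4.97 CPM in HFD-338, against 0.642, 0.460 and 0.291 CPM in HFD-Res (log2 fold change 4.04 with an SE of 0.455, adjusted p = 1.52e-06). Eda2r, a death receptor of the TNF receptor family, rose (log2 fold change of 3.11, adjusted p = 1.59e-05), as did Tnfrsf10b, the mouse TRAIL receptor (log2 fold change of 3.22, adjusted p = 1.95e-04). Gdf15, a stress hormone and another target, did not differ beyond the spread (log2 fold change of -0.03, adjusted p = 0.964), and its groups overlapped, with 5.81, 4.82 and 4.71 CPM in HFD-338, against 3.21, 4.37 and 7.56 CPM in HFD-Res. Its sign turned in 5 of the 11 alternatives.

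**Figure D5:**
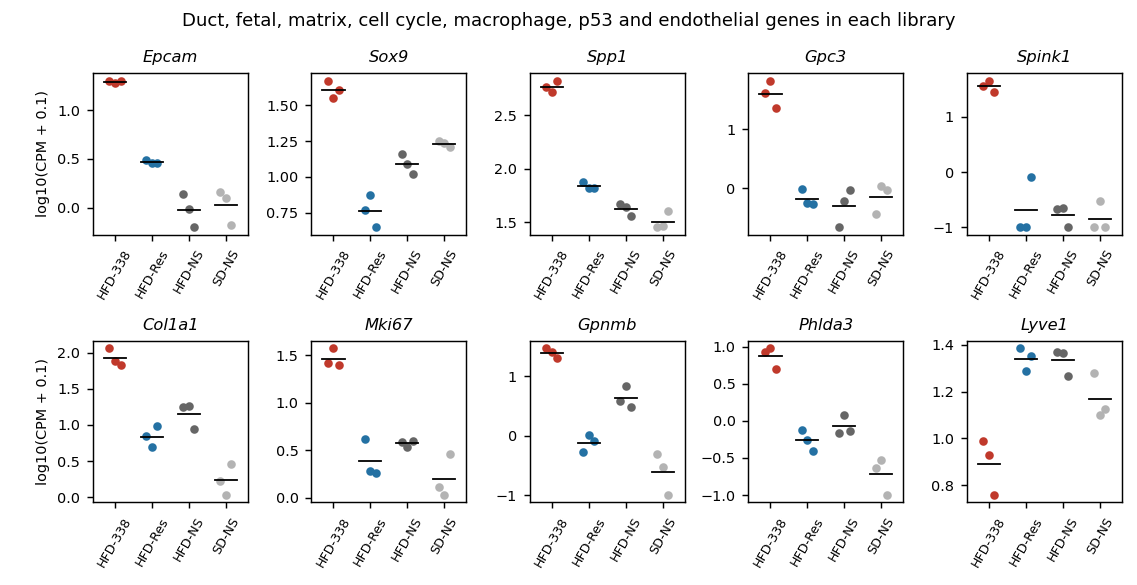
Points are single libraries and lines are group means on a log10 scale (CPM plus 0.1). Among the groups drawn, HFD-338 has the highest mean in Epcam, Sox9, Spp1, Gpc3, Spink1, Col1a1, Mki67, Gpnmb and Phlda3 and the lowest in Lyve1, a gene of sinusoidal endothelium.

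Genes of protein synthesis and of respiration moved in opposite directions, in small and even steps. Of 52 cytosolic ribosomal protein genes, all tested, 39 of 52 tested members rose and 0 fell, with a median log2 fold change of 0.38. Rpl10a had 84.1, 79.0 and 74.6 CPM in HFD-338, against 42.2, 44.4 and 49.8 CPM in HFD-Res (log2 fold change 0.80 with an SE of 0.104, adjusted p = 8.37e-06), and Rpl38 rose (log2 fold change of 0.77, adjusted p = 4.56e-05). Of 40 nuclear-encoded subunits of the respiratory chain, 37 were tested and 1 of 37 tested members rose and 31 fell, with a median log2 fold change of -0.47. Ndufs7, a subunit of complex I, had 25.7, 23.9 and 28.7 CPM in HFD-338, against 45.0, 42.8 and 55.2 CPM in HFD-Res (log2 fold change -0.88 with an SE of 0.150, adjusted p = 1.52e-04). Ndufb3 of the same complex fell (log2 fold change of -0.86, adjusted p = 2.11e-06), and Ndufa4, a subunit of complex IV, was the rise (log2 fold change of 0.48, adjusted p = 0.00276). For the ribosomal list counted against HFD-NS, 48 rose and 0 fell in HFD-338, and 1 rose and 0 fell in HFD-Res. For the respiratory list counted against HFD-NS, 0 rose and 30 fell in HFD-338, and 1 rose and 0 fell in HFD-Res. The table holds 0 mitochondrial genes, so subunits encoded there were not measured. Of 30 genes of lysosomes and autophagy, 19 of 30 tested members rose and 2 fell, with a median log2 fold change of 0.44; 1 of the falls was lost in 8 of the 11 alternatives. Ctss, a cathepsin of macrophages, rose (log2 fold change of 2.10, adjusted p = 9.25e-04), and Ctsk, a collagen-cutting cathepsin, rose (log2 fold change of 3.22, adjusted p = 1.01e-04). By genomic span, the median log2 fold change was -0.077 for 3544 genes under 10 kb, 0.026 for 8062 genes of 10 to 100 kb, 0.052 for 1028 of 100 to 200 kb and -0.069 for 539 of 200 kb or more.

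Interferon-stimulated genes were called no more often in either direction than all genes tested (22.2% rises and 20.9% falls). Of 39, all tested, 7 of 39 tested members rose and 7 fell, with a median log2 fold change of -0.10, and 4 fell with recomputed TPM. The sign of that median turned with recomputed TPM and without HFD-338 replicate 19 or HFD-Res replicate 34. Oas1g and Oas1a, sensors of double-stranded RNA, rose, Oas1g (log2 fold change of 1.84, adjusted p = 6.22e-04) more than Oas1a (log2 fold change of 1.09, adjusted p = 0.00252). Gbp3 (log2 fold change of -1.77, adjusted p = 6.95e-04) and Igtp (log2 fold change of -1.34, adjusted p = 1.94e-04), which are GTPases induced by interferon gamma, fell. Counted against HFD-NS, 21 rose and 1 fell in HFD-338, and 20 rose and 0 fell in HFD-Res, and Oas1g in HFD-NS lay at 0.584, 0.869 and 1.48 CPM.

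Stress genes were only called lower in the main fit. Calls among acute phase and complement genes were mostly rises, and those among clock genes mostly falls. In each of these lists the rarer direction had a smaller share than among all genes tested (22.2% rises and 20.9% falls). Of 29 genes of the unfolded protein and integrated stress response, 0 of 29 tested members rose and 10 fell, with a median log2 fold change of -0.32, and 6 fell with recomputed TPM. In the fit of the 2 groups alone, 1 rose and 13 fell. Atf5, a transcription factor of the mitochondrial stress response, had 193, 182 and 158 CPM in HFD-338, against 628, 797 and 741 CPM in HFD-Res (log2 fold change -2.02 with an SE of 0.122, adjusted p = 7.08e-10), and Chac1, which breaks down glutathione, fell (log2 fold change of -2.20, adjusted p = 0.00108). Of 33 acute phase genes, 8 of 32 tested members rose and 2 fell, with a median log2 fold change of 0.29. The acute phase rises were near the share of all genes. The number of rises fell to 4 without HFD-Res replicate 30 and to 5 without HFD-338 replicate 17 or 18 or HFD-Res replicate 29, and it was 14 with DESeq2 or recomputed TPM. Il1rn, the antagonist of the interleukin-1 receptor, rose (log2 fold change of 1.80, adjusted p = 0.00202), and Saa4 fell (log2 fold change of -1.05, adjusted p = 0.00138). Of 34 complement and coagulation genes, 14 of 33 tested members rose and 4 fell, with a median log2 fold change of 0.12; 2 fell with recomputed TPM and without HFD-338 replicate 17 or 18 or HFD-Res replicate 29. C9, the pore-forming complement component, had 1109.7, 1035 and 1035 CPM in HFD-338, against 214, 199 and 212 CPM in HFD-Res (log2 fold change 2.35 with an SE of 0.251, adjusted p = 8.86e-06). Of 21 clock genes, 3 of 20 tested members rose and 9 fell, with a median log2 fold change of -0.68; 1 rose without HFD-Res replicate 30, and 6 fell without HFD-338 replicate 17 or 18. Per3 fell (log2 fold change of -2.26, adjusted p = 0.00607) and Npas2 rose (log2 fold change of 1.86, adjusted p = 0.00654); the time of day of sampling is not given in the sources used here, and it cannot be told apart from the groups.

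Calls in both hepatocyte zones went both ways. The pericentral rises and the periportal falls were near the shares of all genes tested (22.2% rises and 20.9% falls). Of 20 pericentral genes, 5 of 20 tested members rose and 8 fell, with a median log2 fold change of -0.13, a median that turned sign with recomputed TPM and without HFD-Res replicate 30; without HFD-Res replicate 34, 3 rose. Glul, glutamine synthetase of the hepatocytes around the central vein, had 427, 367 and 569.9 CPM in HFD-338, against 2016, 1987 and 2127 CPM in HFD-Res (log2 fold change -2.17 with an SE of 0.156, adjusted p = 6.59e-09). Rhbg, an ammonia channel of the same cells, went the other way (log2 fold change of 1.91, adjusted p = 3.67e-04). Of 28 periportal, urea cycle and amino acid genes, 10 of 28 tested members rose and 5 fell, with a median log2 fold change of 0.20. There were 2 falls with RLE size factors or recomputed TPM and without HFD-338 replicate 17 or 18 or HFD-Res replicate 29, and 3 with DESeq2, with no low-count filter or without HFD-Res replicate 30. Etnppl, an enzyme of phosphoethanolamine breakdown, had 109, 64.2 and 113 CPM in HFD-338, against 6.21, 5.29 and 5.67 CPM in HFD-Res (log2 fold change 4.06 with an SE of 0.452, adjusted p = 4.06e-05), with HFD-NS at 59.8, 67.8 and 88.0 CPM. Aldh1b1, a mitochondrial aldehyde dehydrogenase, rose (log2 fold change of 2.32, adjusted p = 6.84e-07), and Hsd17b6, a steroid dehydrogenase, rose (log2 fold change of 2.64, adjusted p = 0.00119). In these 3 genes HFD-Res was the lowest of the high-fat diet groups compared here.

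Glucose and iron genes were called no more often than genes of the whole table. Of 21 genes of glucose and glycogen, 5 of 21 tested members rose and 4 fell, with a median log2 fold change of 0.03, a share of calls close to the 43.1% of all genes tested. Ppp1r3c, a glycogen-targeting phosphatase subunit, had 95.2, 90.5 and 77.7 CPM in HFD-338, against 13.3, 20.9 and 15.3 CPM in HFD-Res (log2 fold change 2.42 with an SE of 0.261, adjusted p = 1.21e-05). Fbp1, a gluconeogenic phosphatase, had 812, 721 and 814 CPM in HFD-338, against 386, 390.3 and 317 CPM in HFD-Res (log2 fold change 1.10 with an SE of 0.151, adjusted p = 1.45e-05). For both, HFD-NS lay near HFD-338, at 82.6, 104 and 78.2 CPM for Ppp1r3c and 878, 879.7 and 901 CPM in HFD-NS for Fbp1. Foxo1, a transcription factor restrained by insulin, fell (log2 fold change of -0.94, adjusted p = 6.61e-06). Of 20 iron genes, 3 of 19 tested members rose and 2 fell, with a median log2 fold change of 0.13; without HFD-Res replicate 30, 2 rose and 4 fell. They included the transferrin receptor gene Tfrc as a rise (log2 fold change of 0.93, adjusted p = 0.00522) and Tfr2 as a fall (log2 fold change of -0.37, adjusted p = 0.00504). Of 7 adipocyte markers 3 were tested; 0 were called by edgeR, 0 by DESeq2 and 0 had an unadjusted p under 0.05. Lep, Plin1 and Retn had no count in either group.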

How the data were processed

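Polyadenylated liver RNA was sequenced, after TRIzol and chloroform extraction per the labels' protocols. Tools listed in the submitters' processing notes, without their roles, are STAR 2.7.10b, Bowtie 1.3.1, Trim Galore 0.6.10 and, with build mm39, featureCounts 2.0.1. The deposited counts are whole reads on exons per gene, per the file headers, without strand, with a read counted for each gene it overlaps and no option for multi-mapping reads, so overlapping genes share reads and close gene copies are uncertain. The exon length per gene, also from the authors, was used only for TPM. A second deposited table of TPM has 15 columns whose names carry no replicate number; they were not used.

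Libraries were grouped by labels. All 15 libraries in 5 groups entered 1 fit in edgeR 4.0.16 (R 4.3.3): filterByExpr, TMM, robust quasi-likelihood, contrast HFD-338 minus HFD-Res. The common biological coefficient of variation was 0.134. The fit was tested on simulated data. Alternatives were RLE factors, no low-count filter, DESeq2 1.42.0, a fit of the 2 groups, recomputed TPM (limma 3.58.1 on log2 of TPM plus 1, genes at 1 TPM or more in 3 libraries) and leaving out each of 6 libraries.

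Named genes were called, averaged at least 1 CPM, did not overlap between groups and have no predicted or clone-based symbol: the 15 largest rises and falls and up to 3 per direction of each of 33 gene lists and 13 marker lists. Genes such as Stk25, Thrb, Dio1, Epcam, Alb, Col1a1, Mki67 and Gdf15 are named whatever their result. The comparison, lists and rule were chosen with earlier results of these data known, so lists are described by counts and medians. Promoter sequences are from RefSeq for GRCm38.p6, another build than mm39, matched by symbol. Counting intervals are exact at 95%.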

Additional observations from a re-analysis of the deposited data

How the results depend on the processing

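The main counts were 2926 rises and 2761 falls. The rises kept within 1.5 times of that number under every alternative run (2838 with DESeq2 to 3601 with recomputed TPM; 2295 to 2800 when a library was left out). The falls did so too (2172 to 2494 when a library was left out), except with recomputed TPM, where they numbered 1796; the cause was not tested. None of the main calls was called in the opposite direction under any alternative. Changes of sign that did not pass the threshold were not counted here. Of 214 genes checked, 183 kept direction and side of the threshold in all 11 alternatives. Gdf15, which was not called, turned sign, with log2 fold changes of 0.023 under DESeq2 and 0.20 with recomputed TPM, and from -0.27 to 0.43 when a library was left out. No paired analysis was possible because the replicate numbers differ between the groups. Depth limits the genes at 0 to 3 counts in HFD-Res, whose libraries were the shallower ones.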
